A study of Mus musculus with 12 samples.

Results

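Cyclic AMP (cAMP) is the messenger through which hormones switch on fat breakdown in adipocytes. The genes described here are 10 that make or destroy it: Gnas, 6 adenylyl cyclases (Adcy3, Adcy4, Adcy5, Adcy6, Adcy7 and Adcy9) and 3 phosphodiesterases (Pde3b, Pde4b and Pde4d). They were taken by gene symbol from a table of transcript levels in eWAT, the epididymal white fat pad of the mouse abdomen. All 10 were found among the 25229 genes that carried a symbol, and all 10 passed the filter on low values.

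The 12 libraries came from C57BL/6 mice in 4 groups of 3 biological replicates. These were TET KO mice on a normal diet (ND_TKO), wild type mice on a normal diet (ND_WT), TET KO mice on a high-fat diet (HFD_TKO) and wild type mice on a high-fat diet (HFD_WT). TET enzymes oxidise methylated cytosine in CpG dinucleotides of DNA, and the title of the series places their loss in adipocytes. The Tet genes removed, the promoter that drives the deletion, the age and sex of the mice, the length of feeding and whether a replicate was 1 mouse or a pool are not given in the sources used here.

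Hormones such as noradrenaline bind receptors that activate the stimulatory G protein, whose alpha subunit is encoded by Gnas. That subunit turns on adenylyl cyclases in the plasma membrane, and these convert ATP to cAMP. In adipocytes cAMP activates protein kinase A, which starts the release of fatty acids from lipid droplets. Phosphodiesterases end the signal by hydrolysing cAMP, and insulin suppresses fat breakdown largely by activating the enzyme that Pde3b encodes.

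Among the 10 genes, Adcy5 and Pde4d differed between TKO and WT in the same direction on both diets, and Adcy3 is an example of those called on the high-fat diet and not on the normal diet. Their promoter sequences are shown because CpG dinucleotides are where TET enzymes act. Each is the 250 bases before a RefSeq transcript start in build GRCm38.p6, which has the coordinates of mm10, on the plus strand, 5′ to 3′, with every CpG in capitals. The Adcy5 window lies at chr16:35154614-35154863, the Adcy3 window at chr12:4133147-4133396 and the Pde4d window at chr13:108653927-108654176.
Adcy5: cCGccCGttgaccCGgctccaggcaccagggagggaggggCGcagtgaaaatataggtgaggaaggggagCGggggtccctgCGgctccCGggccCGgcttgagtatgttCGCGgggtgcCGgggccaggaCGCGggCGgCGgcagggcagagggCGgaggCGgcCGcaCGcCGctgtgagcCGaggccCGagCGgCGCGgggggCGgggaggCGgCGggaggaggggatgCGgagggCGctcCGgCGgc
Adcy3: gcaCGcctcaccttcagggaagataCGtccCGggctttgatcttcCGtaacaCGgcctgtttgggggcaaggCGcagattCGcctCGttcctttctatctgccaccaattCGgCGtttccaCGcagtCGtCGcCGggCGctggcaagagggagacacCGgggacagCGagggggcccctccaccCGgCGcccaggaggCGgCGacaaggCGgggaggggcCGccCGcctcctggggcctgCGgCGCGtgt
Pde4d: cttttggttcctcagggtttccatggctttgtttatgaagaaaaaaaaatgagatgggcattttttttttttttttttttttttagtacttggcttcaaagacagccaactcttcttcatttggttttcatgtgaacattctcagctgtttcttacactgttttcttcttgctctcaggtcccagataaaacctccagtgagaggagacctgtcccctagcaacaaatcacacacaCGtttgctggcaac
The Adcy5 window held 32 CpG dinucleotides with 78.0% G and C, the Adcy3 window 27 with 68.8%, and the Pde4d window 1 with 38.8%.

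Over 32851 such windows of 27025 mouse genes the median was 6 CpG. At least as many as in the Adcy5 window were found in 4.58% of them, at least as many as in the Adcy3 window in 8.56%, and at most as many as in the Pde4d window in 18.8%. Adcy5, which rose in TKO on both diets, thus lay above the median, and Pde4d, which fell, lay below it. This describes a pair of genes chosen by their calls. Adcy9 and Adcy3, with 34 and 27 CpG, were lower in TKO on HFD, and Pde4b with 1 had no genotype call. DNA methylation was not among the measurements analysed here. Pde4d is a long gene with several transcript starts, and its window stands for 1 of them. Adcy3 had a second window, at a start 756 bases from the listed one, with 6 CpG. Gnas and Pde4b had 4 windows each, with 14 to 29 CpG for Gnas and 0 to 5 for Pde4b. Of the other members, the windows nearest the listed transcript start held 22 CpG for Gnas, 34 for Adcy9, 13 for Adcy4, 5 for Adcy7 and 1 for Pde4b. The Adcy7 window belonged to a start 10589 bases from the listed one, and the Adcy9 window to one 690 bases away. Adcy6 and Pde3b had no window in the table.

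The letters TGACGTCA, the full element bound by cAMP-responsive transcription factors of the CREB family, were searched on both strands. No member's window held them, against 1.55% of all windows. The shorter form TGACG, or CGTCA on the other strand, stood in the nearest windows of Gnas, Adcy7 and Adcy9, and in 17.8% of all windows. A match of letters does not show that a factor binds.

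Recovered depths lay between 20973140 and 25606629 reads per library. Levels are in CPM, reads of a gene scaled to a common library total, and the 10 genes held between 116 and 19617 reads in any library. Changes are differences on the log2(CPM + 1) scale with their standard error (SE), tested with limma over 15597 genes and called at an adjusted p of at most 0.05. None of the Tet genes was lower in the TKO libraries by this test on either diet, and Tet1 was higher on ND (0.97, adjusted p = 0.019) and on HFD (0.76, adjusted p = 0.010). On ND, Tet1 had 2.22 to 2.98 CPM in TKO and 0.415 to 1.48 CPM in WT, Tet2 15.1 to 23.5 CPM in TKO and 14.7 to 23.6 CPM in WT, and Tet3 40.0 to 49.1 CPM in TKO and 35.5 to 42.0 CPM in WT. On HFD, Tet1 had 1.65 to 3.07 CPM in TKO and 0.841 to 0.996 CPM in WT, Tet2 9.54 to 13.4 CPM in TKO and 13.7 to 17.8 CPM in WT, and Tet3 58.9 to 62.4 CPM in TKO and 64.6 to 71.7 CPM in WT. Reads from exons outside a deletion, or from cells that keep the gene, count in these values, so they do not check the genotype. On a principal component that held 15.8% of the variance, ND_WT replicate 3 lay at -6.21, apart from its group's other libraries at -32.0 and -32.6, and HFD_TKO replicate 1 lay at 44.2, against 18.5 and 26.2 in its group. Calls that changed without these libraries are given with each gene.

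**Figure D1:**
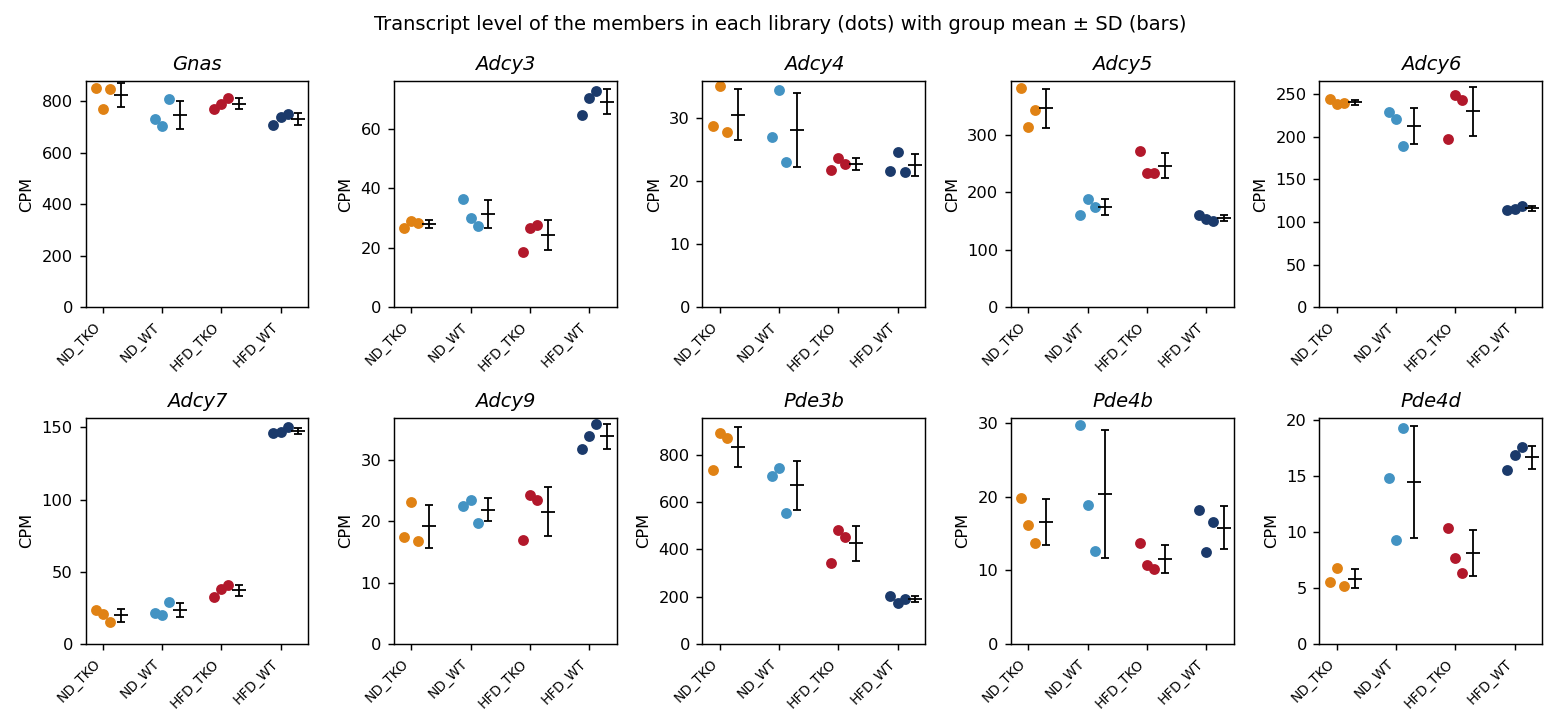
Transcript level in CPM (vertical axes from 0, a scale per gene) of the 10 genes in each of the 12 libraries, with group means and SD as bars. Adcy7 stood at 146 to 150 CPM in the HFD_WT libraries and at 40.8 CPM or less in all others, while Gnas lay between 702 and 850.2 CPM throughout.

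Gnas, which makes the stimulatory alpha subunit and gives rise to further transcripts from an imprinted locus on chromosome 2 (174284320 to 174346744, mm10), was the steadiest of the 10. It stood at 850.2, 768 and 847 CPM in ND_TKO and at 731, 702 and 807 CPM in ND_WT. On the high-fat diet it stood at 769, 789.6 and 810 CPM in HFD_TKO and at 705, 738 and 750.5 CPM in HFD_WT. The groups overlapped on the normal diet, and on HFD all TKO libraries lay above all WT libraries. The TKO change on HFD was 0.11 (SE 0.08, adjusted p = 0.28 in limma, 95% interval -0.06 to 0.28), which is not a call. The count tests on recovered reads called it: edgeR gave 0.25 (adjusted p = 0.038), DESeq2 0.24 (adjusted p = 0.011) and limma-voom 0.25 (adjusted p = 0.035). No test called Gnas in the other comparisons. Its exons overlap those of the antisense genes Nespas and Gm20721. Whether counting used strand is not given in the sources used here, so their reads cannot be told apart from those of Gnas.

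Adcy5 and Adcy6, the cyclases that free calcium inhibits, were the most abundant of the 6 cyclases per kb on the normal diet and were higher in TKO on HFD. Adcy5 (chromosome 16, 35154877 to 35305738) also rose in TKO on the normal diet. It stood at 382, 314 and 343 CPM in ND_TKO and at 160.1, 188 and 174 CPM in ND_WT. All ND_TKO libraries lay above all ND_WT libraries, and the change was 0.99 (SE 0.09, adjusted p = 1.5e-04), a 1.98-fold higher level.

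On HFD, Adcy5 stood at 272, 233 and 234 CPM in TKO and at 160, 154 and 150.4 CPM in WT, again without overlap (0.66, SE 0.09, adjusted p = 9.7e-05). The HFD groups were lower than the ND groups in both genotypes. In TKO mice the diet change was -0.49 (SE 0.09, adjusted p = 0.0043). In WT mice it was -0.16 (adjusted p = 0.14), and trimmed mean (TMM) scaling of the libraries gave -0.31 with a call (adjusted p = 0.042), as did the 3 count tests (adjusted p between 0.024 and 0.032). The TKO change on HFD minus that on ND was -0.32 (SE 0.13, adjusted p = 0.082). That difference was called without ND_TKO replicate 2 (-0.39, adjusted p = 0.046) and without HFD_TKO replicate 1 (-0.40, adjusted p = 0.032). In whole tissue, fewer cells of a type and less RNA per cell cannot be told apart.

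Adcy6 (chromosome 15, 98589973 to 98610076) stood at 197, 249 and 243 CPM in HFD_TKO and at 114, 115 and 119 CPM in HFD_WT. The HFD_TKO libraries thus kept the range of the ND groups, which held 243, 238 and 239 CPM in ND_TKO and 229, 221 and 189 CPM in ND_WT. The TKO change was 0.97 on HFD (SE 0.09, adjusted p = 6.4e-06) and 0.18 on ND (adjusted p = 0.29), where the groups did not overlap either. In WT mice HFD lowered it (-0.87, SE 0.09, adjusted p = 1.0e-05). In TKO mice the diet change was -0.07 (adjusted p = 0.63, 95% interval -0.28 to 0.13). The genotype change differed between diets by 0.79 (SE 0.13, adjusted p = 0.0010). The antisense gene Gm29331 overlaps 605 exon bases of Adcy6.

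Adcy7 had the largest changes of the 10 between genotypes on HFD and between diets in WT. It encodes a cyclase that G protein beta-gamma subunits enhance and that is prominent in blood and immune cells (chromosome 8, 88272403 to 88329962). It stood at 32.7, 37.95 and 40.8 CPM in HFD_TKO and at 146, 147 and 150 CPM in HFD_WT. The HFD_WT libraries lay far above every other library. On ND the groups overlapped, with 23.8, 21.2 and 15.0 CPM in TKO and 21.6, 20.1 and 29.5 CPM in WT. HFD raised Adcy7 in WT mice by 2.61 (SE 0.17, adjusted p = 1.2e-07), a 6.09-fold higher level, and in TKO mice by 0.88 (SE 0.17, adjusted p = 0.0043). The TKO change was -1.97 on HFD (SE 0.17, adjusted p = 2.0e-06) and -0.24 on ND (adjusted p = 0.42). These changes differed between diets by -1.73 (SE 0.23, adjusted p = 2.4e-04).

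Adcy3, a cyclase known from olfactory cilia and from obesity in mice that lack it (chromosome 12, 4133103 to 4213525), was higher in HFD_WT than in the other groups. It stood at 18.6, 26.6 and 27.8 CPM in HFD_TKO and at 64.55, 70.4 and 72.6 CPM in HFD_WT. The ND groups overlapped, at 26.7, 29.05 and 28.3 CPM in TKO and 36.5, 30.0 and 27.4 CPM in WT. The TKO change was -1.49 on HFD (SE 0.14, adjusted p = 5.0e-06) and -0.14 on ND (adjusted p = 0.60), a difference between diets of -1.345 (SE 0.20, adjusted p = 4.4e-04). HFD raised Adcy3 in WT mice (1.13, SE 0.14, adjusted p = 3.0e-05). In TKO mice the diet change was -0.22 (adjusted p = 0.30).

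The exons of Adcy3 share 1221 bases with Cenpo, a centromere gene on the other strand. Cenpo, chosen after its values were seen, stood at 5.26, 7.03 and 5.85 CPM in HFD_TKO and at 10.8, 10.2 and 11.99 CPM in HFD_WT (-0.77, adjusted p = 3.4e-04). How far reads were shared was not tested.

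Adcy9, a cyclase that responds weakly to the plant compound forskolin (chromosome 16, 4287529 to 4420498), was, as Adcy3 was, lower in TKO on HFD and raised by HFD in WT. It stood at 17.0, 24.2 and 23.4 CPM in HFD_TKO and at 31.7, 33.9 and 35.75 CPM in HFD_WT, without overlap. The TKO change on HFD was -0.64 (SE 0.15, adjusted p = 0.0034), and HFD raised Adcy9 in WT mice by 0.61 (SE 0.15, adjusted p = 0.0036). On ND it stood at 17.5, 23.1 and 16.8 CPM in TKO and at 22.5, 23.4 and 19.7 CPM in WT, with overlap (-0.19, adjusted p = 0.47). The diet change in TKO mice was 0.16 (adjusted p = 0.47), and the difference of genotype changes between diets, -0.45, was not called (SE 0.21, adjusted p = 0.13).

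Adcy4, another cyclase that beta-gamma subunits enhance (chromosome 14, 55769057 to 55784095), showed no genotype call on either diet. It stood at 28.6, 35.1 and 27.8 CPM in ND_TKO and at 26.9, 34.4 and 22.9 CPM in ND_WT, and at 21.7, 23.6 and 22.7 CPM in HFD_TKO and 21.6, 24.6 and 21.4 CPM in HFD_WT. Genotypes overlapped on both diets. The TKO change on HFD was 0.01 (95% interval -0.28 to 0.30). Its HFD libraries were lower in TKO mice by a margin at the threshold (-0.41, SE 0.13, adjusted p = 0.0497). That call ended without any 1 library of the ND_TKO, HFD_TKO or HFD_WT groups or ND_WT replicate 1, with adjusted p between 0.061 and 0.16. It also ended with a pseudocount of 5 (adjusted p = 0.052) and without a filter on low values (adjusted p = 0.11). In WT mice the diet change was -0.29 (adjusted p = 0.083), and it was called with TMM scaling (-0.43, adjusted p = 0.015), by the 3 count tests (adjusted p between 0.0049 and 0.012) and without ND_WT replicate 3 (-0.42, adjusted p = 0.013).

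**Figure D2:**
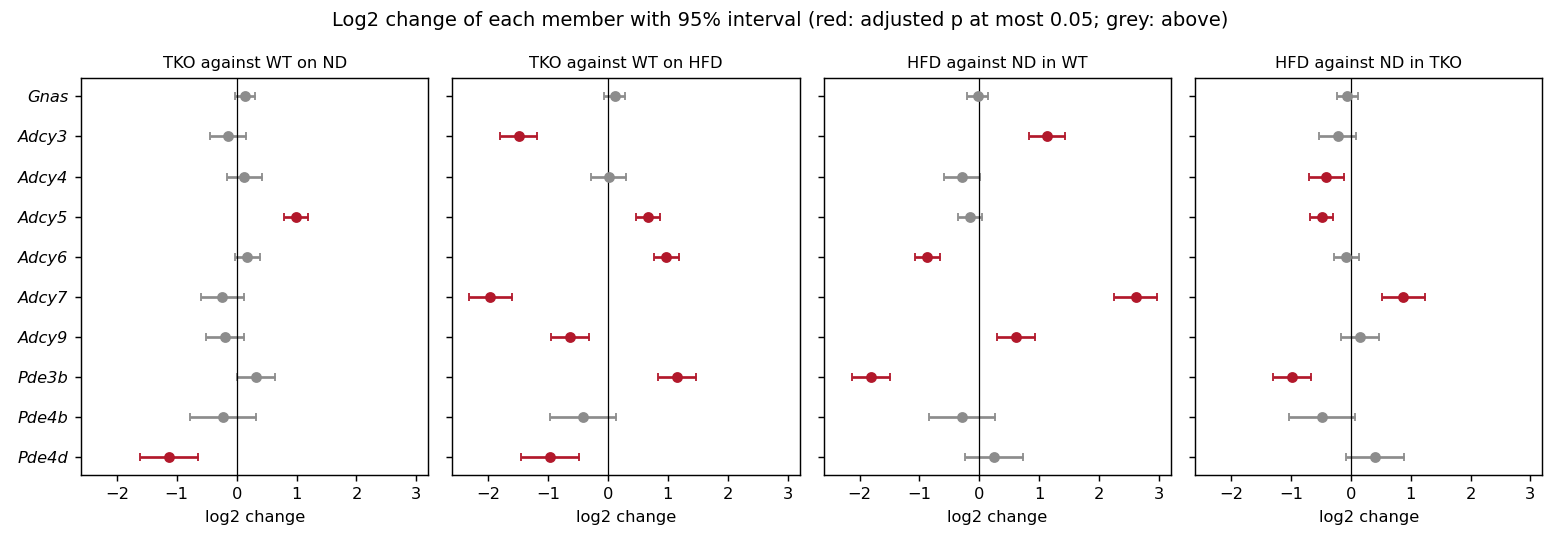
Log2 change (horizontal axes, log2(CPM + 1) scale) of each gene in 4 comparisons, with 95% intervals; red points have an adjusted p of at most 0.05. On HFD the TKO change of Adcy3, Adcy7, Adcy9 and Pde4d lay below 0 and that of Adcy5, Adcy6 and Pde3b above 0, and on ND the called genes were Adcy5 and Pde4d.

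Pde3b, the phosphodiesterase that insulin activates in adipocytes (chromosome 7, 114415281 to 114539251), fell with HFD in both genotypes and was higher in TKO on HFD. It stood at 343, 482 and 452 CPM in HFD_TKO and at 202, 175 and 192 CPM in HFD_WT. No HFD_TKO library reached down to the WT range, and the change was 1.15 (SE 0.14, adjusted p = 4.9e-05), a 2.22-fold higher level. On ND it stood at 733, 892 and 872 CPM in TKO and at 712, 746 and 554 CPM in WT, with overlap, and the change of 0.32 was not called (SE 0.14, adjusted p = 0.22). HFD lowered Pde3b in WT mice (log2 change -1.81, SE 0.14, adjusted p = 7.9e-07) and by less in TKO mice (-0.98, SE 0.14, adjusted p = 0.0017). The genotype change differed between diets by 0.83 (SE 0.20, adjusted p = 0.0098).

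Pde4d, a cAMP-specific phosphodiesterase that exists in many isoforms (chromosome 13, 108449948 to 109953461), was with Pde4b the least abundant of the 10 per kb in every group. It was lower in TKO on both diets. On ND it stood at 5.54, 6.765 and 5.16 CPM in TKO and at 14.8, 9.31 and 19.3 CPM in WT. On HFD it stood at 10.3, 7.72 and 6.305 CPM in TKO and at 15.5, 16.9 and 17.6 CPM in WT. TKO libraries lay below WT libraries on each diet without overlap, and the ND_WT libraries were spread widely. On ND the change was -1.13 (SE 0.22, adjusted p = 0.013). The HFD change was -0.98 (SE 0.22, adjusted p = 0.0034). Between diets these changes differed by 0.16 (95% interval -0.53 to 0.84, adjusted p = 0.75). The ND call ended without ND_TKO replicate 3 (-1.06, adjusted p = 0.056), without ND_WT replicate 1 (-1.09, adjusted p = 0.057), without a filter on low values (adjusted p = 0.057) and when the ND groups alone were fitted (adjusted p = 0.061). Pde4d was not called between diets in WT (0.24, adjusted p = 0.37) or in TKO (0.40, adjusted p = 0.22).

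Pde4b, a related phosphodiesterase known for its part in inflammatory signalling of white blood cells (chromosome 4, 102087543 to 102607259), had no call in any comparison. It stood at 19.8, 16.2 and 13.65 CPM in ND_TKO and at 29.7, 18.8 and 12.6 CPM in ND_WT. On HFD it stood at 13.7, 10.7 and 10.1 CPM in TKO and at 18.2, 12.5 and 16.6 CPM in WT. The genotypes overlapped on both diets and the intervals were wide. The TKO change was -0.22 on ND (95% interval -0.77 to 0.33) and -0.42 on HFD (-0.97 to 0.13). The diet change in WT, -0.29 (adjusted p = 0.35), was called without ND_WT replicate 3 (-0.57, adjusted p = 0.042).

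Set against all 15597 tested genes, the number of members called can be read as follows. In TKO on ND, 1 member rose and 1 fell, while 2.16% of tested genes rose and 3.54% fell. In TKO on HFD, 3 rose and 4 fell, where 15.2% of tested genes rose and 31.6% fell. HFD raised 3 and lowered 2 in WT mice, where it raised 37.8% and lowered 20.3% of tested genes. In TKO mice HFD raised 1 and lowered 3, against 16.2% and 5.90% of tested genes. The genotype change differed between diets upwards for 2 members and downwards for 2, against 9.94% and 18.8% of tested genes. The members' count for HFD in WT, 5 of 10, was near the share over all genes. The comparisons share libraries in pairs, so their calls are not independent of each other. Groups without overlap are described gene by gene, and the share of all tested genes without overlap was not counted.

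The split of these calls depended on the scaling for the whole table. With TMM scaling, TKO on ND had 525 higher and 396 lower genes, against 337 and 552 in CPM. On HFD the TMM split was 3315 higher and 3996 lower, against 2365 and 4923. For HFD in WT it was 4664 and 4248, against 5892 and 3173, and for HFD in TKO 1397 and 1474, against 2525 and 921. The median change of all genes moved by -0.12 for HFD in WT, where it was 0.13 in CPM, and by less than 0.1 in the other comparisons. The members' split moved for HFD in WT alone, where TMM scaling lowered 4 in place of 2, Adcy4 and Adcy5 being the additional genes. In CPM the members' median change was -0.01 for TKO on ND and -0.20 on HFD, against -0.06 and -0.10 over all genes, and -0.10 for HFD in WT and -0.14 in TKO, against 0.13 and 0.07 over all genes.

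Levels of different genes were set side by side per kb of exon. The cyclases together held 94.6 ± 4.09 CPM per kb in HFD_TKO and 91.7 ± 1.28 in HFD_WT (mean ± SD, n = 3 each), and 110 ± 4.41 in ND_TKO against 82.2 ± 5.21 in ND_WT. On HFD the summed level thus overlapped between genotypes while its make-up differed. Adcy5 and Adcy6 gave 37.3% ± 5.11 and 40.1% ± 3.30 of the sum in HFD_TKO, and 24.1% ± 1.09 and 20.9% ± 0.267 in HFD_WT. Adcy7 gave 6.31% ± 0.468 in HFD_TKO and 25.9% ± 0.254 in HFD_WT, and Adcy3 gave 5.09% ± 0.864 in HFD_TKO and 15.0% ± 0.696 in HFD_WT. Neither share overlapped between the HFD genotypes. On ND, Adcy5 gave 44.7% ± 2.90 in TKO and 30.2% ± 2.58 in WT, and Adcy6 gave 36.1% ± 1.01 in TKO and 42.8% ± 2.36 in WT. Adcy7 stayed under 7% of the sum in each group but HFD_WT, and Adcy4 and Adcy9 stayed under 12% in every library.

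**Figure D3:**
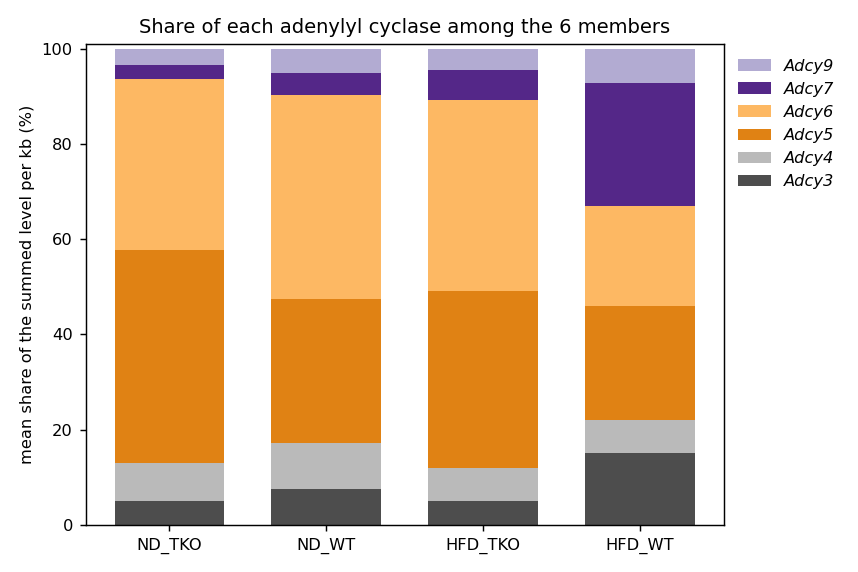
Mean share (vertical axis, %) of each cyclase in the summed level per kb of the 6 cyclases, by group (n = 3 each). The Adcy7 block is 25.9% in HFD_WT and 6.31% in HFD_TKO, and Adcy5 is the tallest block in ND_TKO at 44.7%.

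Pde3b gave nearly all of the phosphodiesterase transcript among the 3 members, at 97.7% ± 0.522 of the sum per kb in ND_TKO and 95.6% ± 1.11 in ND_WT, and at 95.9% ± 1.54 in HFD_TKO and 86.7% ± 0.438 in HFD_WT. The sum itself was 67.4 ± 10.7 CPM per kb in HFD_TKO and 33.3 ± 2.40 in HFD_WT, and 130 ± 12.9 in ND_TKO and 107 ± 15.7 in ND_WT. In the order of all 10 genes, Pde3b stood below Gnas in both HFD groups and above Gnas in both ND groups, each time without overlap of their ranges. The ND order depends on the length used for Gnas, 10.4 kb of exon pooled over its protein-coding transcripts. In CPM, Gnas averaged 747 and Pde3b 671 in ND_WT, and 822 and 832.5 in ND_TKO. In HFD_WT the order went on with Adcy7 at 23.8 CPM per kb, Adcy5 at 22.1 and Adcy6 at 19.2, whose ranges did not overlap. In HFD_TKO, Adcy6 at 38.0 and Adcy5 at 35.2 overlapped, and so did Adcy4, Adcy7, Adcy3 and Adcy9, each with its neighbour in the order, between 6.44 and 4.15 CPM per kb. In ND_TKO, Adcy5 at 49.4 CPM per kb stood above Adcy6 at 39.8, while in ND_WT Adcy6 at 35.2 stood above Adcy5 at 24.8, without overlap in either group.

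Marker genes of adipocytes, macrophages and lymphocytes differed between the genotypes on HFD, where most members did. The summed level of 12 adipocyte markers was 28970 to 31220 CPM in HFD_TKO and 16840 to 18240 CPM in HFD_WT, and 38550 to 44280 CPM in ND_TKO and 39070 to 50550 CPM in ND_WT. On HFD 10 of the 12 were higher in TKO and none lower, while of all tested genes 15.2% were higher and 31.6% lower. The 12 macrophage markers summed to 1509 to 1780 CPM in HFD_TKO and 7679 to 9255 CPM in HFD_WT, and to 805 to 1177 CPM in ND_TKO and 991 to 1421 CPM in ND_WT. All 12 were lower in TKO on HFD. So were all 5 tested markers of T and NK cells, which summed to 3.82 to 5.06 CPM in HFD_TKO and 14.7 to 45.9 CPM in HFD_WT, and all 4 of B cells, at 5.44 to 7.63 CPM in HFD_TKO and 14.4 to 102.7 CPM in HFD_WT. Adcy3, Adcy7 and Adcy9 were highest in HFD_WT, as the macrophage sum was. The T and NK cell and stromal progenitor sums were highest there too, as was the median B cell sum. On HFD Adcy5, Adcy6 and Pde3b were higher in the genotype with the higher adipocyte sum. Over all groups Adcy5 did not follow that sum, since ND_WT had a high sum and Adcy5 at 160.1 to 188 CPM. The ND sums include Cfd, which averaged 2118 ± 755 CPM in ND_TKO and 9589 ± 3993 CPM in ND_WT. Sums without Cfd were not made. No marker of these lists was at 3 reads or fewer in every library. The part of cell make-up in these changes was not tested.

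Fewer markers were called on ND. There, 0 adipocyte markers were higher and 3 lower in TKO, and 1 of 12 macrophage markers was lower, while Adcy5 rose and Pde4d fell. In the same comparison 2.16% of all tested genes were higher and 3.54% lower. The summed stromal progenitor markers were 707 to 874 CPM in HFD_TKO and 1202 to 1521 CPM in HFD_WT. Those of endothelial cells lay between 642 and 845 CPM in all libraries. Of 5 markers of the epididymis, 4 (Lcn5, Lcn8, Defb21 and Crisp1) had at most 3 reads in every library.

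**Figure D4:**
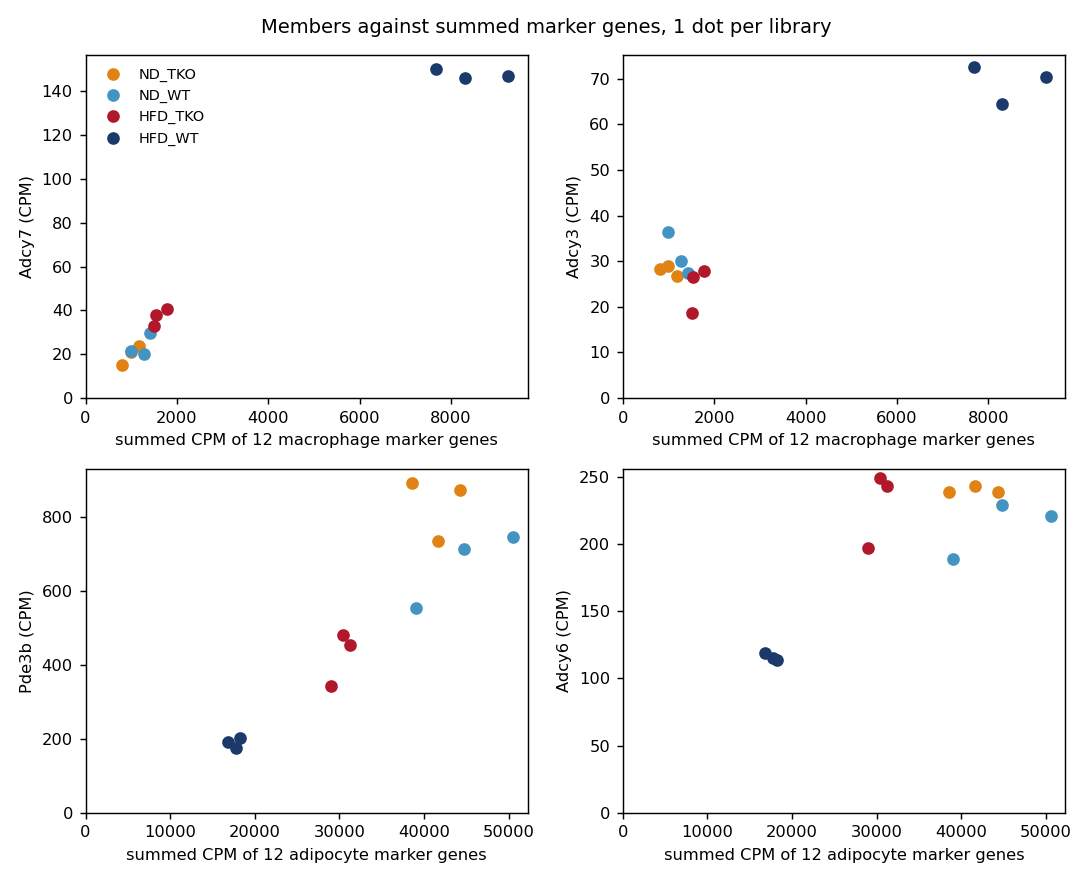
Level of Adcy7, Adcy3, Pde3b and Adcy6 (vertical axes, CPM) against the summed level of 12 macrophage or 12 adipocyte marker genes (horizontal axes, CPM), with 1 dot per library. The HFD_WT libraries stand alone at macrophage sums of 7679 to 9255 CPM, and the 9 other libraries lie at 1780 CPM or less.

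Some members varied together over the 12 libraries. Pearson's r of log2(CPM + 1) was 0.90 for Adcy3 with Adcy9, 0.84 for Adcy3 with Adcy7 and 0.90 for Adcy6 with Pde3b. After group means were removed these were 0.75, 0.03 and 0.82. Other pairs were negative, with -0.97 for Adcy7 with Pde3b and -0.92 for Adcy6 with Adcy7 (-0.33 and -0.07 within groups). For Adcy3 with Adcy6 the sign turned, from -0.87 over the libraries to 0.90 within groups. The values share libraries, depth and the group differences above, and are given as a description. Within groups, Adcy3 and Adcy7 thus hardly moved together.

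Upstream of the members are receptors that couple to the stimulatory G protein. Of 17 tested, 5 were higher and 3 lower in TKO on HFD (5 and 1 with TMM scaling), in all near the share over all tested genes, and their median change was 0.08 against -0.10 over all genes. Among them 4 were raised and 9 lowered by HFD in WT, and in TKO on ND 0 rose and 3 fell. Of all tested genes HFD raised 37.8% and lowered 20.3% in WT, and 2.16% rose and 3.54% fell in TKO on ND. Adrb3, the adipocyte receptor for noradrenaline, stood at 193.5, 350.2 and 346 CPM in HFD_TKO and at 26.2, 25.6 and 18.1 CPM in HFD_WT, far apart (3.58, SE 0.23, adjusted p = 3.6e-07). On ND it stood at 529, 575.5 and 644 CPM in TKO and at 791, 766 and 525 CPM in WT, with overlap, and HFD lowered it in WT (log2 change -4.83, SE 0.23, adjusted p = 2.4e-08). A further 12 receptors, which couple to the inhibitory G protein, were tested. In TKO on HFD 2 of them were higher and 1 lower, against 15.2% and 31.6% of all tested genes. On ND 1 of the 12 was higher and 0 lower, against 2.16% and 3.54%. Sucnr1, the receptor for succinate, was among the higher ones on HFD (0.86, SE 0.16, adjusted p = 8.4e-04).

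Among 17 other G protein subunits, 3 were higher and 6 lower in TKO on HFD, but 4 higher and 3 lower with TMM scaling, and their median change of -0.10 equalled that of all genes. On ND 3 were higher and 1 lower in TKO. HFD raised 9 and lowered 3 in WT mice (8 and 5 with TMM scaling). Gnal, which encodes an alpha subunit closely related to the product of Gnas, averaged 4.31 ± 0.685 CPM in HFD_TKO and 50.95 ± 5.595 CPM in HFD_WT (log2 change -3.29, SE 0.25, adjusted p = 1.0e-06). Gnai1, an inhibitory alpha subunit, moved the other way, with 320.1 ± 11.04 CPM in HFD_TKO and 171 ± 24.8 CPM in HFD_WT (0.91, SE 0.11, adjusted p = 3.5e-05).

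Beside the members, 4 other cyclases and 13 other phosphodiesterases that can hydrolyse cAMP were tested. Of the cyclases 1 was lower in TKO on HFD, and none was called on ND. That gene, Adcy2, averaged 0.459 CPM in HFD_TKO and 1.35 CPM in HFD_WT, and its call ended in edgeR (adjusted p = 0.11), in DESeq2 (adjusted p = 0.094), without a filter (adjusted p = 0.059) and without HFD_TKO replicate 1 or any HFD_WT replicate (adjusted p between 0.052 and 0.097). Of the phosphodiesterases, 1 was higher and 5 lower in TKO on HFD (2 and 3 with TMM scaling), and HFD raised 8 and lowered 1 in WT (6 and 3 with TMM scaling). The shares over all tested genes in CPM were 15.2% and 31.6% for TKO on HFD, and 37.8% and 20.3% for HFD in WT. Pde8a, which has a high affinity for cAMP, averaged 23.1 ± 1.71 CPM in HFD_TKO and 49.6 ± 2.47 CPM in HFD_WT (-1.07, SE 0.11, adjusted p = 8.7e-06). Pde1a, which calcium and calmodulin activate, fell with HFD in WT (-1.96, SE 0.22, adjusted p = 1.2e-05).

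Downstream, 19 genes of protein kinase A and other cAMP effectors were tested. In TKO, 5 rose and 6 fell on HFD, where 15.2% and 31.6% of all tested genes did. On ND 2 rose and 1 fell, against 2.16% and 3.54% of all tested genes. Akap12, an anchor of protein kinase A, was higher in TKO on both diets, as Adcy5 was. It stood at 183, 159 and 146 CPM in ND_TKO and at 93.1, 85.2 and 97.6 CPM in ND_WT (0.81, SE 0.11, adjusted p = 0.0014). The HFD libraries averaged 199 ± 27.3 CPM in TKO and 96.8 ± 2.38 CPM in WT (1.03, SE 0.11, adjusted p = 1.1e-05). Prkar2b, the regulatory subunit of the kinase that is abundant in fat, was higher on HFD with 984 ± 46.6 CPM in TKO and 598 ± 36.7 CPM in WT (0.72, SE 0.08, adjusted p = 1.7e-05). On ND it was higher too (0.46, SE 0.08, adjusted p = 0.0059), a call lost when the ND groups alone were fitted (adjusted p = 0.059).

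Pkib, an inhibitor of protein kinase A, moved the other way. It stood at 1.68, 1.20 and 2.56 CPM in HFD_TKO and at 20.5, 20.3 and 23.0 CPM in HFD_WT (log2 change -3.01, SE 0.19, adjusted p = 3.6e-07). Of 10 tested genes of the CREB family and its regulators, 1 was higher and 4 lower in TKO on HFD. This compares with 15.2% and 31.6% of all tested genes. With TMM scaling 2 of the 10 were higher and 3 lower, and none was called on ND. Sik2, a kinase that holds CREB coactivators in the cytoplasm, was the higher one in CPM (0.80, SE 0.19, adjusted p = 0.0039), with 179 ± 44.5 CPM in HFD_TKO and 99.9 ± 2.997 CPM in HFD_WT.

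**Figure D5:**
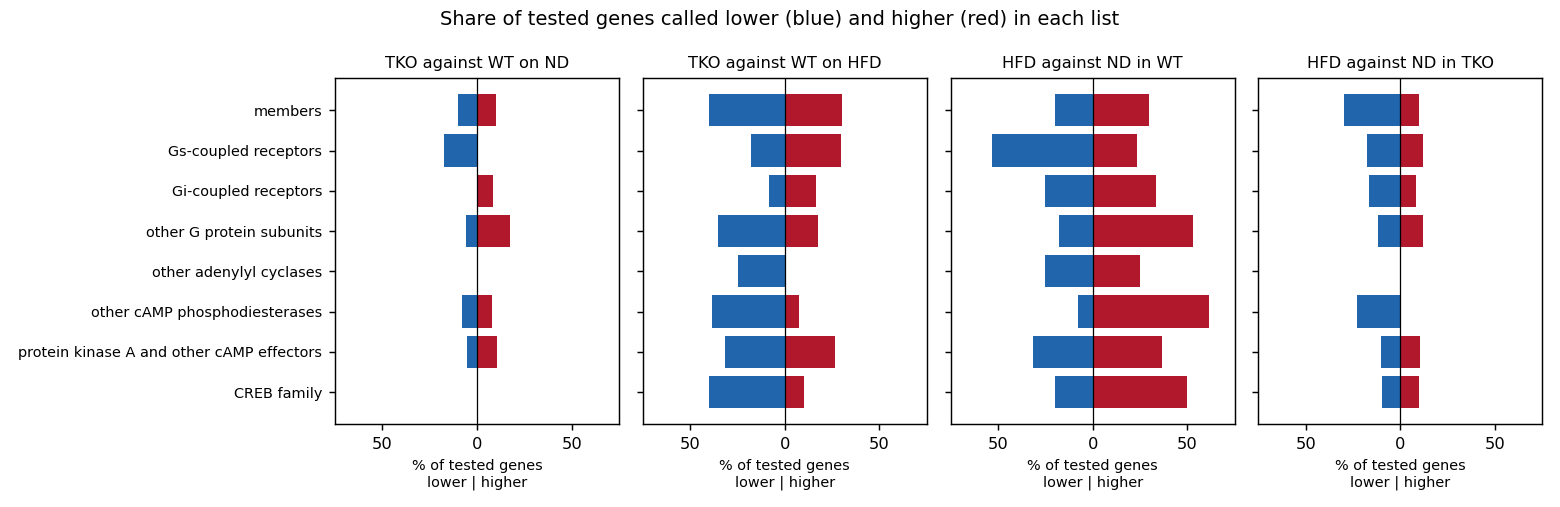
Share of tested genes (horizontal axes, %) called lower (blue, to the left) and higher (red, to the right) for the 10 members and 7 lists of the pathway, in 4 comparisons. For TKO on ND the bars are short, with 3 of 17 receptors of the stimulatory G protein lower, while for TKO on HFD most lists have bars on both sides.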

How the data were processed

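Whole eWAT was sequenced as 12 libraries, and groups came from the sample titles. Per the file headers, the authors deposited CPM, read counts per gene divided by the library total. Per the submitters' processing notes, STAR 2.7.3a, featureCounts 2.0.0, DESeq2 and build mm10 were used, with no role or order stated. Annotation, strand setting and handling of multi-mapped reads are not given in the sources used here.

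In every library 100% of deposited CPM values were whole multiples of 1 read, within 0.05 read after an offset of 0.01 read, so depth and reads per gene were recovered. A count of 0 allows 3 reads, or 0.117 to 0.143 CPM, which covers counting error only. A total of 3 rows without a symbol (0.0313% to 0.0679% of CPM) were left out. Pairs of replicates differed by more than sampling noise (chi-square per degree of freedom 6.28 to 73.3).

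The 15597 genes that reached 0.5 CPM in 3 or more libraries were tested with limma 3.58.1 (R 4.3.3, mean-variance trend) on log2(CPM + 1), which understates changes of low genes. A single model of the 4 group means used all 12 libraries (8 residual degrees of freedom), and p-values were adjusted by Benjamini-Hochberg over all tested genes. The fit was tested on simulated counts with the same spread for all genes and no outlying libraries. That test does not cover the outlying libraries seen here. Alternatives were pseudocounts of 0.5 and 5, no filter, TMM scaling, the compared groups alone, the replicate number as a block, each library left out, and edgeR 4.0.16, DESeq2 1.42.0 and limma-voom on recovered reads.

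Of the group pairs compared, ND_TKO and HFD_TKO libraries of the same number deviated together, with correlations of 0.12 to 0.56, and in each other pair of groups at least 1 number did not. Correlations in the other pairs of groups reached -0.50, and the labels do not link libraries by number, so a pairing is not established. The blocked fit put the replicate number on all 4 groups, and it changed no member's call for HFD in TKO.

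Lengths are unions of protein-coding exons in GENCODE M21 on mm10, and promoters are from RefSeq. The members and lists were chosen with earlier results of these data known. All members are named, and from each pathway list the 4 genes with the smallest p-value per comparison could be.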

Additional observations from a re-analysis of the deposited data

Results flagged for a closer look

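The TKO change differed between the diets for 4 of the 10 genes by a test of the difference itself, the genotype by diet interaction in limma with Benjamini-Hochberg adjustment. Given as the TKO change on HFD minus that on ND, the difference was -1.345 for Adcy3 (SE 0.20, adjusted p = 4.4e-04) and -1.726 for Adcy7 (SE 0.23, adjusted p = 2.4e-04), both of which were lower in all TKO libraries than in all WT libraries on HFD. It was 0.7936 for Adcy6 (SE 0.13, adjusted p = 0.0010) and 0.8303 for Pde3b (SE 0.20, adjusted p = 0.0098), both of which were higher in all TKO libraries on HFD. Each of the 4 kept its call under every alternative that was run. Over all tested genes the interaction was called upwards for 9.94% and downwards for 18.8%. How many of them had no overlap between genotypes on HFD was not counted.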

How the results depend on the processing

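Of 1040 values of members under alternatives, 1008 kept their side of the threshold, 16 lost a call and 16 gained one. Among values called in either fit, 0 changed direction. Sign changes where neither fit made a call were not counted, as for Gnas in the interaction (-0.028, and 0.021 with TMM scaling). For TKO on ND, where 889 genes were called, the count was 535 without a filter, 280 with only the groups compared, 1400 in DESeq2 and between 350 and 1853 when single libraries were left out (350 without ND_WT replicate 1, 1853 without ND_WT replicate 3). The 2 members called there became 1 without a filter, 1 with only the groups compared, and 1 to 2 when single libraries were left out. For HFD in TKO the count of 3446 genes ranged from 1716 (without ND_TKO replicate 3) to 4296 (without ND_WT replicate 3). The cause was not tested. Of 102 called values of pathway genes open to naming, 36 lost the call under at least 1 alternative and 0 reversed.

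The labels do not link libraries by replicate number, and outside the TKO diet comparison correlations of same-numbered libraries ran from -0.50 to 0.23. With the replicate block, 751 genes were called for TKO on ND, 7114 for TKO on HFD, 8921 for HFD in WT, 3162 for HFD in TKO and 4228 for the interaction. Among members the block changed 1 call, Adcy4 for HFD in WT (-0.29, adjusted p = 0.026). Each group held 3 libraries, and the 95% intervals of Pde4b, -0.77 to 0.33 for TKO on ND and -0.97 to 0.13 on HFD, show the changes these data leave possible.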

Other observations

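The genes whose levels followed each member most closely over the 12 libraries were listed as a description. Pearson's r of log2(CPM + 1) shares libraries, depth and group differences, so the value after removal of group means is given beside it. Adcy7 was followed by Arap1 (0.997, and 0.92 within groups), Prkcd (0.997, and 0.92) and Apobr (0.997, and 0.92). Adcy3 was followed by Fzd7, a receptor for Wnt ligands (0.994, and 0.95 within groups). For Pde3b the closest gene was Acss3 (0.992, and 0.97 within groups), and for Adcy6 it was Hoxc8 (0.993, and 0.87). Adcy9 was followed by Nsd3 (0.988, and 0.95 within groups) and Adcy4 by Cnga4 (0.963, and 0.95).

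Adcy5 was followed by Slc19a1, a folate carrier (0.971, and 0.75 within groups), and by Aldh3b3 (0.960, and 0.21 within groups). The closest gene was Gm6936 for Pde4d (0.967, and 0.86 within groups), Fhl1 for Gnas (0.906, and 0.79) and Hap1 for Pde4b (0.864, and 0.80).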
